A study of Mus musculus with 22 samples.

Results

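The nuclear-encoded subunits of the respiratory chain were examined in mouse kidney RNA-Seq: 82 of the 32858 genes in the deposited count table. A gene was a member if its symbol matched the naming of the subunits of complexes I to V (Nduf followed by a, b, c, s or v and a number, Sdha to Sdhd, Uqcr, Cox4 to Cox8, Atp5), did not end in -ps, and reached 10 counts in at least 5 libraries. The symbols gave 95 rows, of which 8 ended in -ps and 5 (Cox8c, Cox7b2, Cox6c2, Ndufa11b, and Ndufs6b) had too few counts. The members comprised 35 genes for complex I, 4 for complex II, 8 for complex III, 18 for complex IV, and 17 for complex V, with Ndufa4 and Ndufa4l2 counted in complex IV. The rule used no measured value beyond the count minimum, and all 82 members were among the 17131 genes tested.

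The 22 mice, 1 library each, were male C57Bl6/J animals 8 to 10 weeks old. The vehicle group (n = 5) received the carrier, which was 15% DMSO, 15% cremophor, and 70% saline. KW6002 was dissolved in this carrier and cisplatin in saline, and the carrier is listed for all 22 mice. The KW6002 group (n = 6) received the adenosine receptor antagonist KW6002 (istradefylline) at 3 mg/kg each day from day -5 to day 7. The cisplatin group (n = 5) received 6 injections of cisplatin at 3 mg/kg, and the co-treated group (n = 6) received both drugs on these schedules. Whole kidneys were taken on day 8, which was 72 hours after the last cisplatin dose. The question put to the members was whether their mRNA differed with cisplatin and whether KW6002 altered that difference. The labels number 3 vehicle mice and 3 KW6002 mice in the 300s, and all others (16 mice) in the 500s, without saying what separates these series. Library totals ran from 26471762 to 40510754 counts. The summed level of 9 proximal tubule markers, the tubule segment that takes up most filtered solutes, was 43354 to 49083 CPM with vehicle, 42907 to 48489.8 CPM with KW6002, 3218 to 5713 CPM with cisplatin, and 8924 to 15364 CPM with co-treatment. None of the 9 was under 1 CPM throughout a group. Co-treated replicate 6 stood apart, with the 15364 CPM of tubule markers and 49.8 CPM of adrenal markers, which summed to at most 2.67 CPM in the other libraries.

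The respiratory chain sits in the inner mitochondrial membrane. Complexes I and II pass electrons from NADH and succinate to ubiquinone, complex III passes them on to cytochrome c, complex IV hands them to oxygen, and complex V uses the resulting proton gradient to make ATP. Most subunits are encoded in the nucleus and imported, a few are encoded by mitochondrial DNA, and complex II is entirely nuclear. Proximal tubule cells are rich in mitochondria, since solute reabsorption is driven by ATP. Several complex IV subunits exist as paired genes, one expressed widely and the other in particular tissues: Cox6a2, Cox7a1, and Cox8b are known from heart, skeletal muscle, or brown fat, Cox6b2 from testis, and Cox4i2 from lung.

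Promoter sequences are shown first, because nuclear respiratory factor 1 (NRF1), a factor known to bind subunit promoters, is a common reference point for genes of this kind. RefSeq promoter windows on GRCm38.p6 (250 bases before to 50 after the start) were matched for 67 of the 82 members. The NRF1 letters GCGCATGCG, searched on both strands, were found in 8 of the 67 windows (11.9%), compared with 1.96% of the windows of 26742 genes. The YY1 letters AAGATGGCG were found in 7 members (10.4%, compared with 1.65%), and the ETS letters CCGGAAGT in 5 (7.46%, compared with 4.35%). By complex, NRF1 letters were found in 2 of 31 complex I windows, 0 of 3 complex II windows, 2 of 5 complex III windows, 1 of 13 complex IV windows, and 3 of 15 complex V windows. The sites are given in the direction of the gene with 9 bases on either side, and capitals mark every base covered by a match on either strand, since the letters and their reverse complement overlap.
Ndufa11, chr17:56717693-56717720, plus strand: ctgcactgcGCGCATGCGCgcacgcctt
Ndufa8, chr2:36049330-36049356, minus strand: cgctggagaCGCATGCGCagatggtac
Uqcr11, chr10:80406809-80406835, minus strand: tcgccttcaCGCATGCGCtatacgtct
Uqcrc1, chr9:108936669-108936696, plus strand: ctccgctctGCGCATGCGCagcgcggct
Cox6a1, chr5:115349102-115349129, minus strand: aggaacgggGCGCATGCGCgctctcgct
Atp5g2, chr15:102671071-102671098, minus strand: gctccggccGCGCATGCGCagagccttc
Atp5k, chr5:108434431-108434458, minus strand: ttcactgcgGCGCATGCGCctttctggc
Atp5l, chr9:44920966-44920992, minus strand: aaccaataaCGCATGCGCatttccccc

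A second set of sequences compares promoters of paired complex IV genes whose mRNA levels moved apart in the results that follow. Each is the stretch from 130 to 41 bases before the RefSeq start, which overlaps no annotated exon. Capitals mark CCAAT on either strand, which 19.9% of all such windows hold; the GC box letters GGGCGG, found in 22.2% of all such windows, were absent from these 4.
Cox6b1, chr7:30626155-30626244, minus strand: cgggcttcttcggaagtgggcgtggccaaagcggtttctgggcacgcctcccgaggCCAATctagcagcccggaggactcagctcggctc
Cox6b2, chr7:4753135-4753224, minus strand: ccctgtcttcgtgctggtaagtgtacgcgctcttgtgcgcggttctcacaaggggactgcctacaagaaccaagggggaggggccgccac
Cox7a1, chr7:30184041-30184130, plus strand: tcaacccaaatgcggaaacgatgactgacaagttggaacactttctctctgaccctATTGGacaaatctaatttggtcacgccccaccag
Cox7a2, chr9:79759894-79759983, minus strand: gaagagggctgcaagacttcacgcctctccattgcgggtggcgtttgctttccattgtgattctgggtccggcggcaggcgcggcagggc
CCAAT was thus found once in the Cox6b1 window and once, on the other strand, in the Cox7a1 window. These findings hold for the chosen stretches only. Further matches lie outside them, among them CCAAT on the other strand in the Cox6b2 promoter. GC box letters cross the end of the Cox7a2 stretch. A match of letters is a description of the sequence and does not show that a factor binds there.

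In vehicle-treated kidney the members varied widely in level. Levels are CPM, the reads of a gene relative to the library total scaled by edgeR's TMM factors, and between genes they were compared per kilobase of the principal transcript. Atp5b, the catalytic beta subunit of ATP synthase, was first at 1774 CPM per kilobase, followed by Cox4i1 at 1075 and Atp5a1, the alpha subunit, at 946. The Atp5g genes encode the same mature c-ring subunit, and of these Atp5g3 stood at 796 CPM per kilobase. The levels of Atp5g2 and Atp5l are understated, since only uniquely aligned reads were counted and just 12.6% and 15.2% of the 50-base windows of their transcripts occur in no other gene. This share was 47.0% for Cox7c, 49.7% for Atp5o, and 68.9% for Ndufs5. No window of Cox6b1, Cox6b2, Cox7a1, Cox7a2, or Cox8b occurred in another gene. The summed level of all members was 21143 ± 399 CPM (SD, n = 5), of which complex V genes made up 39.6% ± 0.41 and complex I genes 24.1% ± 0.30.

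With cisplatin, most subunit mRNAs were lower than with vehicle. By edgeR's quasi-likelihood test (adjusted p below 0.05, Benjamini-Hochberg over all genes tested), 61 of 82 members fell and 6 rose. Over all genes, 70.5% were called in this comparison, 35.9% lower and 34.6% higher, so the share of members called (67 of 82) was not far above the background, but 74.4% of the members were lower and 7.32% higher. The median log2 fold change was -0.39 over the members and -0.012 over all genes. This contrast was smaller among abundant genes. At 300 CPM or more with vehicle, most of all genes tested were called lower too. Their median was -0.63, beside -0.68 for the members at that level. Under 300 CPM the median was -0.00015 over all genes and -0.31 over the members. This split used the vehicle libraries of the same comparison, so a fall at 300 CPM or more was partly set by the split. For 50 members every cisplatin library lay below every vehicle library, and for 3 every one lay above; over all genes these shares were 27.9% and 27.4%. In whole-kidney RNA, fewer cells of a type and less of an mRNA per cell cannot be told apart, and the 9 proximal tubule markers, all 9 of them called lower with cisplatin, moved in the same direction as most members. All 4 markers of the thick ascending limb (median sum 9538 CPM with vehicle and 2212 CPM with cisplatin) and all 3 of the distal convoluted tubule (1975 and 129 CPM) were also lower, whereas 3 of 4 fibroblast and pericyte markers were higher and 1 lower (202 and 397 CPM). Their part in the differences was not tested.

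The count of lower members depended on the scaling. When libraries were scaled by their size only, the median over all genes moved to 0.20 on the log2 scale, and 38 members were called lower and 14 higher. The share of all genes called under this scaling is not given here. The median over the members was then -0.17. Their median minus that of all genes was -0.37 under both scalings. Within the mice numbered in the 500s (2 vehicle and 5 cisplatin libraries), 50 members were lower and 3 higher, beside 63.1% of all genes called. With the label series as a covariate, 59 were lower and 4 higher, beside 68.0% of all genes. Under the study's own limits, an adjusted p under 0.01 together with a log2 fold change over 1 in size, 7 members were lower and 2 higher, beside 24.1% of all genes.

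By complex, all 4 members of complex II were lower (median log2 fold change -0.81), as were 15 of 17 of complex V (median -0.46), 7 of 8 of complex III (median -0.39), 25 of 35 of complex I (median -0.34), and 10 of 18 of complex IV (median -0.29). Complex I gave 2 of the higher members and complex IV the other 4. As a sum over its members, complex II stood at 51.6% of its vehicle level with cisplatin, complex V at 55.6%, complex III at 66.6%, complex I at 74.1%, and complex IV at 88.5%. Without the paired-isoform genes, which left 6 of its 18 members (1570 of 3423 CPM with vehicle), complex IV stood at 75.1%. Most of its distance from complex I (74.1%) was thus in the genes left out. These included abundant, widely expressed forms such as Cox6a1, Cox6b1, and Cox8a as well as the second forms. With library-size scaling the sums were higher, from 59.9% for complex II to 103% for complex IV, in the same order.

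**Figure D1:**
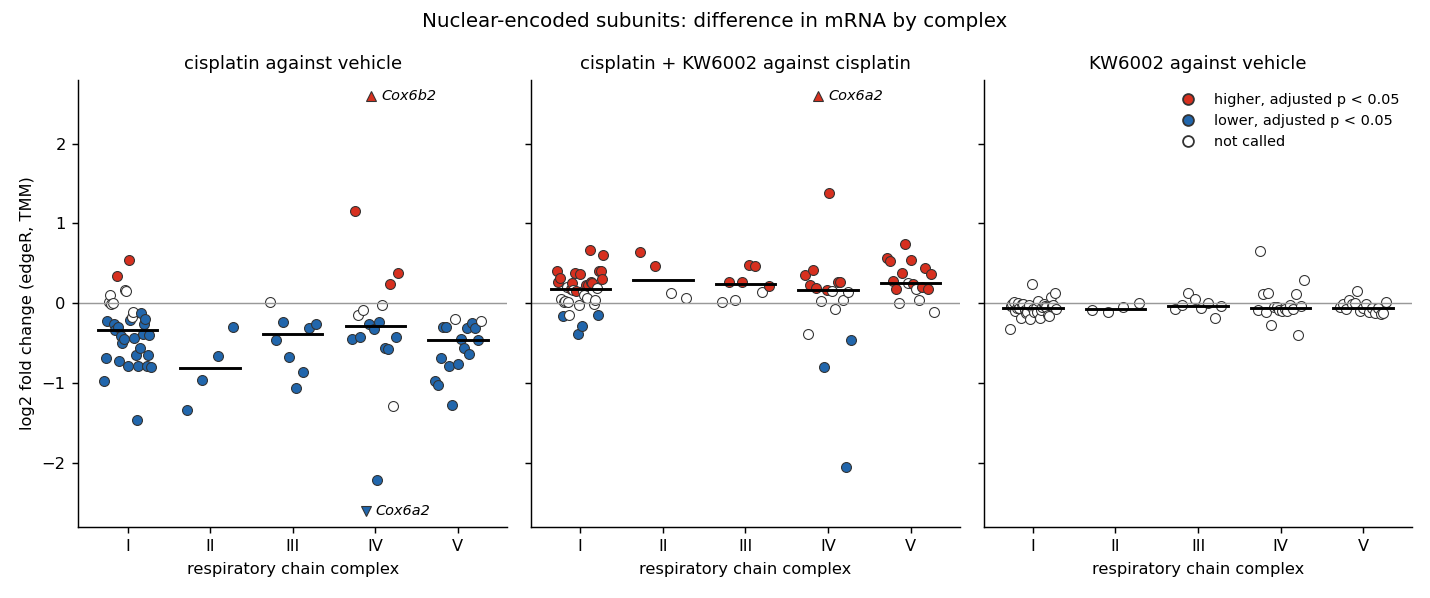
Log2 fold change of each of the 82 members (points) by complex in 3 comparisons, red where called higher, blue where called lower, white where not called; black bars are medians, and triangles at the edge mark Cox6b2 and Cox6a2, which lie beyond the axis. With cisplatin most points lie below 0, with co-treatment against cisplatin most lie above, and no member was called with KW6002 alone.

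**Figure D2:**
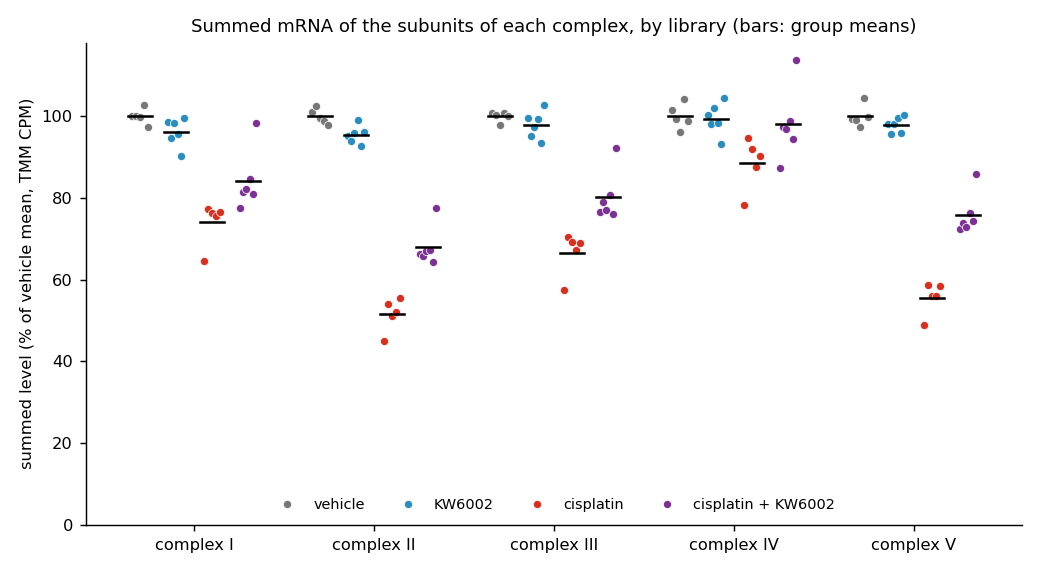
Summed level of the members of each complex in every library (points) as a percentage of the vehicle mean, with group means as bars. With cisplatin, complex II (51.6%) and complex V (55.6%) were furthest below vehicle and complex IV (88.5%) nearest to it, and the co-treated means lay between the cisplatin and vehicle means for all 5 complexes.

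In complex I, the 7 core subunits encoded in the nucleus, which carry out the electron transfer, were all lower with cisplatin (median log2 fold change -0.64), and 18 of the 28 accessory subunits were lower with 2 higher (median -0.26). Ndufs1 (ENSMUSG00000025968, mm10 chr1:63143596-63176833, minus strand), the largest iron-sulfur subunit, showed the largest fall in the complex. Its levels were 381, 397, 408, 401 and 387 CPM in the vehicle libraries and 132, 142, 139, 143 and 163 CPM in the cisplatin libraries. They were 370.2 to 401 with a median of 379 CPM with KW6002 and 212 to 266 with a median of 221 CPM with co-treatment. No cisplatin library reached the co-treated range and no co-treated library reached the vehicle range. The log2 fold change was -1.46 (SE 0.060, adjusted p = 2.33e-15) for cisplatin against vehicle and 0.67 (SE 0.057, adjusted p = 1.75e-09) for co-treatment against cisplatin. Ndufs1 shares its locus with Eef1b2 and other genes on the opposite strand, and the strand setting of the read counting is not given in the sources used here.

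Other core subunits of complex I had smaller changes. Ndufv1, which binds NADH and the flavin, changed by -0.64 (SE 0.069, adjusted p = 2.34e-08) and Ndufv2, its iron-sulfur partner, by -0.39 (SE 0.051, adjusted p = 4.74e-07). Ndufb6 (ENSMUSG00000071014, mm10 chr4:40270591-40279421, minus strand), an accessory subunit of the membrane arm, had the largest rise in the complex. Its vehicle libraries were at 104, 101.7, 101, 97.3 and 90.1 CPM and its cisplatin libraries at 131, 154, 150.4, 151 and 134 CPM, without overlap, and the log2 fold change was 0.54 (SE 0.069, adjusted p = 2.78e-07). It overlaps Smim27 on the opposite strand, and 65.9% of its 50-base windows occur in no other gene. Ndufa2, Ndufa3, and Ndufa12, small accessory subunits chosen here after their values were seen, were near 0, at log2 fold changes of -0.010 (SE 0.080), 0.0061 (SE 0.064), and 0.022 (SE 0.060), and none was called.

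In complex II, succinate dehydrogenase, the log2 fold changes of the catalytic head were further from 0 than those of the membrane anchor. Sdha (ENSMUSG00000021577, mm10 chr13:74322254-74350280, minus strand), the flavoprotein that oxidizes succinate, was at 1124, 1171, 1104, 1099 and 1099 CPM with vehicle and 392, 461, 438, 446 and 486 CPM with cisplatin. It was at 1041 to 1101 with a median of 1048 CPM with KW6002 and 650.2 to 779 with a median of 683 CPM with co-treatment. The cisplatin, co-treated, and vehicle ranges did not touch one another. Sdha changed by -1.33 (SE 0.056, adjusted p = 3.69e-15) with cisplatin, and Sdhb, the iron-sulfur subunit, by -0.96 (SE 0.070, adjusted p = 3.36e-11). The anchor subunits Sdhc and Sdhd changed by -0.66 (SE 0.057, adjusted p = 5.58e-10) and -0.30 (SE 0.063, adjusted p = 0.000215); the Sdhd call was lost with library-size scaling (log2 fold change -0.081, adjusted p = 0.202).

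In complex III the largest changes were in core and catalytic subunits. Uqcrc2 (ENSMUSG00000030884, mm10 chr7:120635176-120659524, plus strand), a core protein that holds the complex together, was at 527.9, 544, 524.4, 522 and 509 CPM with vehicle and 219, 259.6, 258, 259 and 261 CPM with cisplatin. The difference was -1.06 (SE 0.052, adjusted p = 3.09e-14) on the log2 scale. The first cisplatin library stood well below the other 4. Uqcrc1, the other core protein, changed by -0.67 (SE 0.051, adjusted p = 6.5e-11) and Uqcrfs1, the Rieske iron-sulfur protein, by -0.86 (SE 0.10, adjusted p = 1.02e-07). No member of the complex rose, and Uqcr10, a small accessory subunit, was at 0.011 (SE 0.080).

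In complex V, the 5 genes for the soluble F1 head (Atp5a1, Atp5b, Atp5c1, Atp5d, and Atp5e) were all lower, with a median log2 fold change of -0.68, and 10 of the 12 other members were lower, with a median of -0.45. Atp5b (ENSMUSG00000025393, mm10 chr10:128083273-128090391, plus strand) was at 3398, 3402, 3238, 3563 and 3394 CPM with vehicle and 1471, 1737, 1679, 1663 and 1795 CPM with cisplatin. It was at 3348 to 3426 with a median of 3365 CPM with KW6002 and 2283 to 2677 with a median of 2363 CPM with co-treatment, so that each cisplatin-treated group kept a range of its own below vehicle. Atp5b changed by -1.03 (SE 0.058, adjusted p = 4.03e-13) with cisplatin, and Atp5a1 by -0.98 (SE 0.056, adjusted p = 4.9e-13). The c-ring genes differed from one another in level and in change. The low-abundance Atp5g1 had the largest fall in the complex, from 6.89 ± 1.11 to 2.85 ± 0.209 CPM (SD, n = 5 each) and a log2 fold change of -1.27 (SE 0.13, adjusted p = 7.42e-09). The abundant Atp5g3 changed by -0.76 (SE 0.069, adjusted p = 1.43e-09), and Atp5g2, most of whose reads cannot be placed uniquely, was not called, at -0.19 (SE 0.18, adjusted p = 0.359).

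**Figure D3:**
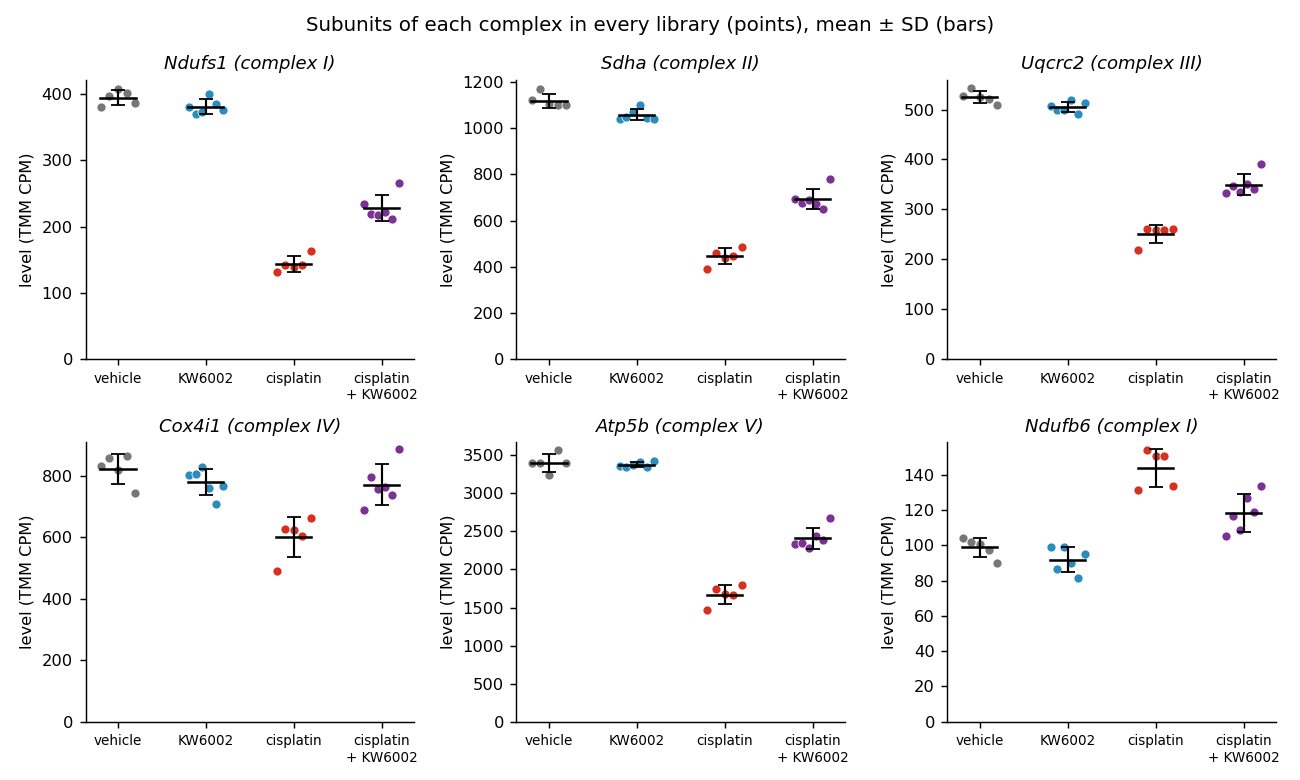
Levels in TMM-normalized CPM of 1 strongly expressed subunit for each complex and of Ndufb6, in every library (points), with the mean and SD of each group as bars; axes start at 0. Ndufs1, Sdha, Uqcrc2, and Atp5b step from vehicle and KW6002 down to co-treatment and further to cisplatin, Cox4i1 overlaps between vehicle and co-treatment, and Ndufb6 runs the other way.

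Complex IV, cytochrome c oxidase, held both the largest rise and the largest falls, and they occurred in the second form of paired genes. Of the 12 widely expressed members, 8 were lower with cisplatin and 1 higher, with a median log2 fold change of -0.29. Cox4i1, which binds at the core of the enzyme, was at 832, 857, 818, 863 and 742 CPM with vehicle, a median of 785 CPM with KW6002, 491, 624.7, 624, 605 and 663 CPM with cisplatin, and 688 to 888 with a median of 759 CPM with co-treatment. Its cisplatin libraries lay below all vehicle libraries, while the co-treated range overlapped that of vehicle. It changed by -0.45 (SE 0.075, adjusted p = 1.22e-05) with cisplatin, and Cox5b, a matrix-side subunit, by -0.42 (SE 0.11, adjusted p = 0.00240), although the Cox5b call was lost with library-size scaling (adjusted p = 0.0915). Cox5a was not called, at -0.15 (SE 0.095, adjusted p = 0.155), but was in the mice numbered in the 500s (log2 fold change -0.37, adjusted p = 0.00442). Ndufa4, which was long assigned to complex I, changed by -0.43 (SE 0.079, adjusted p = 5.15e-05).

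Cox6b2 (ENSMUSG00000051811, mm10 chr7:4751792-4753094, minus strand), described as the testis form of the subunit at the dimer interface, rose more than any other member. Its levels were 10.6, 11.1, 9.0, 7.29 and 10.1 CPM with vehicle and 7.39 to 11.5 with a median of 8.79 CPM with KW6002. They were 187, 168, 176, 171 and 179 CPM with cisplatin and 75.8 to 140.4 with a median of 96.3 CPM with co-treatment. Both cisplatin-treated groups lay far above the groups without cisplatin, and they did not overlap with each other. The log2 fold change was 4.19 (SE 0.15, adjusted p = 1.99e-16) for cisplatin against vehicle, which is 18.3-fold, and -0.80 (SE 0.12, adjusted p = 5.6e-06) for co-treatment against cisplatin. Its widely expressed partner Cox6b1 changed by -0.26 (SE 0.071, adjusted p = 0.00255), a call lost with library-size scaling (adjusted p = 0.568) and in the mice numbered in the 500s (adjusted p = 0.0531). Cox6b2 went from 2.37% ± 0.437 of the pair, per kilobase, with vehicle to 34.7% ± 3.14 with cisplatin (SD, n = 5 each) and 22.7% ± 2.61 with co-treatment (SD, n = 6). The 50-base windows of either transcript occur in no other gene, and Fam71e2, which lies just upstream on the same strand, had 0 to 2 counts per library.

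Cox7a1 (ENSMUSG00000074218, mm10 chr7:30184144-30186078, plus strand), the heart and muscle form of a subunit at the dimer interface, fell more than any other member with enough counts for a fold change. It was at 12.7, 13.8, 13.2, 12.8 and 10.4 CPM with vehicle and 1.89, 2.71, 2.82, 3.18 and 2.89 CPM with cisplatin. It was at 9.59 to 14.4 with a median of 11.7 CPM with KW6002 and 5.77 to 9.22 with a median of 6.63 CPM with co-treatment. The vehicle, co-treated, and cisplatin ranges were all separate. The log2 fold change was -2.22 (SE 0.15, adjusted p = 7.01e-12) with cisplatin and 1.38 (SE 0.14, adjusted p = 4.21e-08) for co-treatment against cisplatin, compared with -0.23 (SE 0.070, adjusted p = 0.00511) and 0.16 (SE 0.067, adjusted p = 0.0518) for its widely expressed partner Cox7a2. The Cox7a2 call with cisplatin was lost with library-size scaling (adjusted p = 0.823) and in the mice numbered in the 500s (adjusted p = 0.0886). Cox7a2l, a related gene for a protein of respiratory supercomplexes, was not called, at -0.023 (SE 0.058, adjusted p = 0.740); with library-size scaling it was called higher (log2 fold change 0.19, adjusted p = 0.00143).

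Cox6a2 (ENSMUSG00000030785, mm10 chr7:128205435-128206387, minus strand), the other heart and muscle form, all but vanished with cisplatin. Its counts were 71, 38, 43, 47 and 62 in the vehicle libraries and 0, 0, 1, 1 and 1 in the cisplatin libraries. They were 21 to 69 with a median of 42.5 with KW6002 and 3 to 10 with a median of 6 with co-treatment. The 12 libraries with 10 or more counts were those without cisplatin and co-treated replicate 6 (10 counts). Cox6a2 is thus a member through the groups where it was high, and its appearance as a fall is partly set by the count minimum. In sums over libraries, 261 counts with vehicle compared with 3 counts with cisplatin, a ratio of 113 with an exact 95% interval of 38.2 to 550.4, and 35 counts with co-treatment compared with the same 3 gave a ratio of 11.1 (3.51 to 56.5). The intervals cover counting error only. The gene was called in both comparisons (adjusted p = 3.21e-10 and 0.000710) while Cox6a1, the widely expressed partner, was not called with cisplatin, at -0.090 (SE 0.068, adjusted p = 0.244). Cox6a2 overlaps Itgad on the opposite strand. The 6 markers of skeletal and heart muscle summed to at most 2.85 CPM in any library.

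Cox8b (ENSMUSG00000025488, mm10 chr7:140898945-140900446, minus strand) varied with the brown fat marker Ucp1 across the libraries of all groups. Its counts were 281, 392, 126, 218 and 67 with vehicle, 4 to 298 with a median of 182 with KW6002, 97, 63, 197, 196 and 42 with cisplatin, and 1 to 53 with a median of 19.5 with co-treatment. The groups overlapped for cisplatin against vehicle, where Cox8b was not called, at -1.29 (SE 0.65, adjusted p = 0.0821) on the log2 scale; it was called with the mean of 10 fat markers as a covariate (adjusted p = 0.00553) and without the 2 libraries with the least fat RNA (adjusted p = 0.0210). In the co-treated libraries it was lower than in the cisplatin libraries, at -2.06 (SE 0.71, adjusted p = 0.0180), a call that was lost without cisplatin replicate 3 (adjusted p = 0.0517) or cisplatin replicate 4 (adjusted p = 0.0510), and with the fat covariate the log2 fold change was 0.66 (adjusted p = 0.216). The library with 4 counts of Cox8b, KW6002 replicate 2, had 0.104 CPM of Ucp1, the uncoupling protein of brown fat, and the library with 1 count, co-treated replicate 2, had 0.0314 CPM, the lowest values of Ucp1 in their groups. Cox7a1 and Cox6a2, also known from brown fat, were low in these libraries too, but less far from their groups. KW6002 replicate 2 held 9.89 CPM of Cox7a1, next to the lowest of its group, and 0.705 CPM of Cox6a2, the lowest, compared with 0.738 to 2.64 CPM in the other KW6002 libraries. Co-treated replicate 2 held 5.77 CPM of Cox7a1 and 0.0941 CPM of Cox6a2 (3 counts), both the lowest of its group. The white fat markers, 6 in number, summed to 38.4 to 230 CPM with co-treatment and 340.2 to 640.3 CPM with cisplatin. Their sums were 137 to 1045 CPM with vehicle and 60.6 to 404 CPM with KW6002. Fat markers did not all move alike. Medians with vehicle and cisplatin were 36.4 and 6.23 CPM for Ucp1, 27.0 and 22.2 for Cidea, and 18.8 and 38.4 for Adipoq. With cisplatin, 1 white fat marker and 2 of 5 brown fat markers other than Cox8b were called lower, and none higher. The part of fat RNA in the differences was not tested beyond the settings named. Without the 2 libraries with the least fat RNA, 67 members were called with cisplatin and 50 with co-treatment against cisplatin. These counts are given without direction and without the share of all genes called in that setting.

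The remaining paired genes were low or changed little. Cox4i2 had 8, 8, 8, 11 and 11 counts with vehicle and 21, 22, 35, 38 and 18 counts with cisplatin, without overlap, and a log2 fold change of 1.16 (SE 0.28, adjusted p = 0.000871). This call was not reached in the mice numbered in the 500s (log2 fold change 0.93, adjusted p = 0.0625). Ndufa4l2, a relative of Ndufa4 known to respond to low oxygen, changed by 0.38 (SE 0.15, adjusted p = 0.0236), a call lost on leaving out any of 5 libraries (vehicle replicates 1, 2, and 3 and cisplatin replicates 1 and 3; adjusted p from 0.0501 to 0.0783). For Ndufa4l2 the log2 fold change was 0.28 with the label series as a covariate (adjusted p = 0.127) and 0.096 within the mice numbered in the 500s (adjusted p = 0.637). Cox8a, the widely expressed partner of Cox8b, changed by 0.24 (SE 0.092, adjusted p = 0.0258), lost on leaving out vehicle replicate 2 or 3 or cisplatin replicate 2 or 5 (adjusted p from 0.0568 to 0.0939). For Cox8a the log2 fold change was 0.12 with the label series as a covariate (adjusted p = 0.248) and 0.071 within the mice numbered in the 500s (adjusted p = 0.609).

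**Figure D4:**
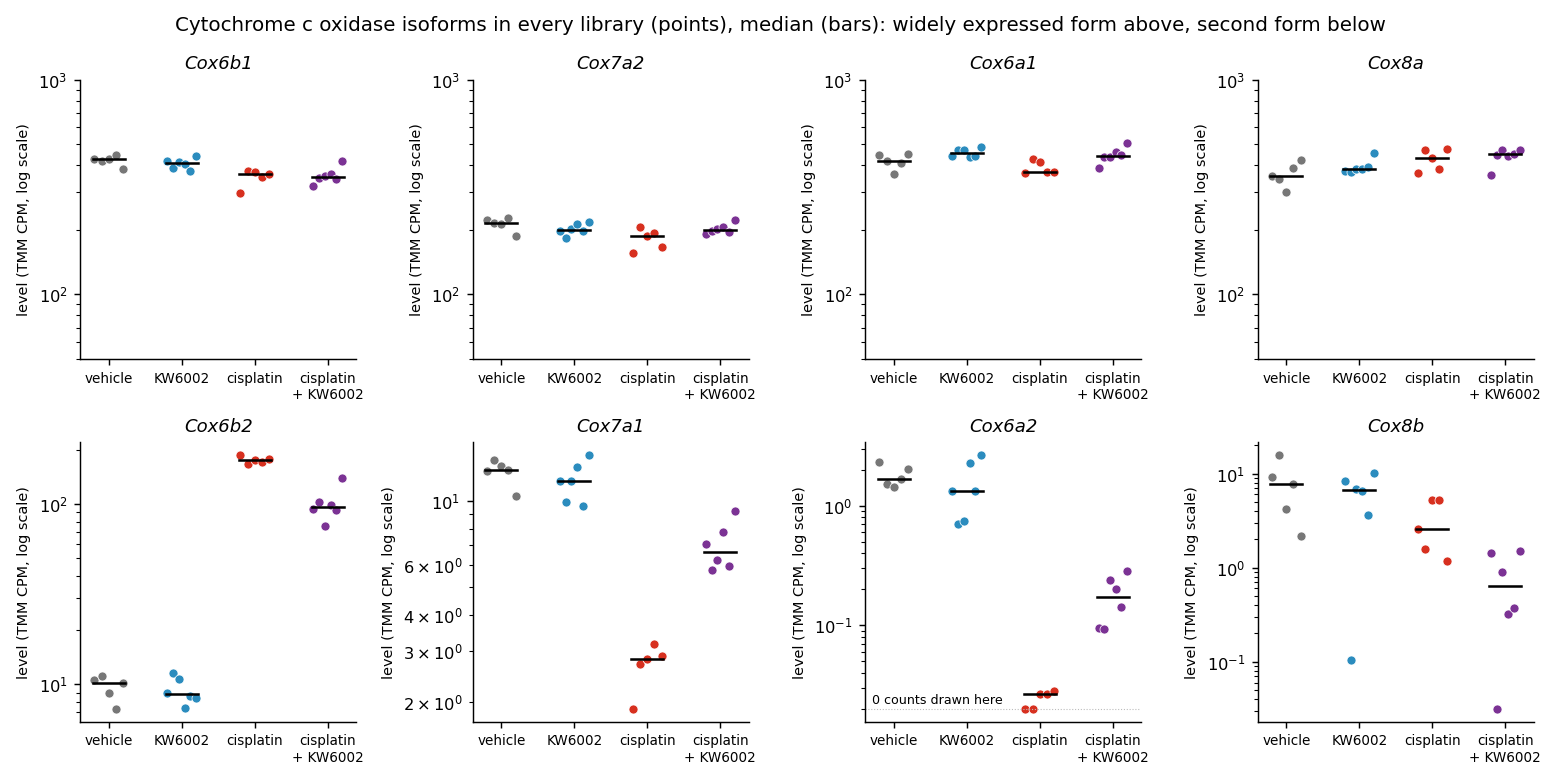
Levels in TMM-normalized CPM on log axes of 4 pairs of complex IV genes in every library (points), with group medians as bars; the upper row holds the widely expressed forms, and 0 counts of Cox6a2 are drawn at the dotted line. Cox6b2 sits above 160 CPM in all cisplatin libraries and below 12 CPM in all vehicle libraries, Cox7a1 and Cox6a2 run the other way, and Cox8b is spread within each group.

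**Figure D5:**
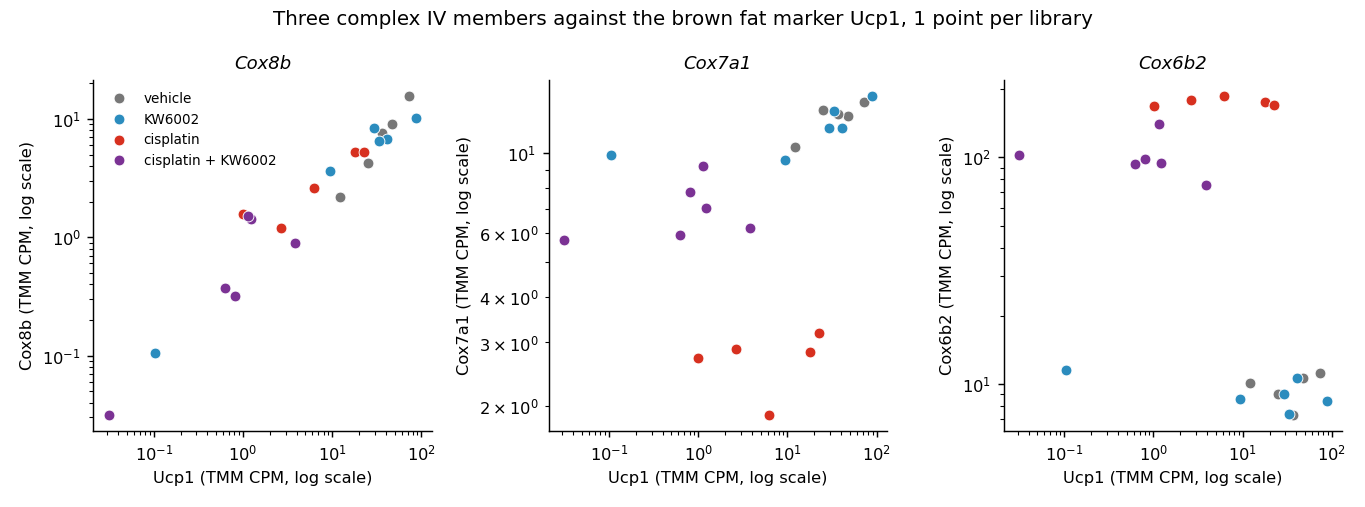
Levels of Cox8b, Cox7a1, and Cox6b2 against the brown fat marker Ucp1, all in TMM-normalized CPM on log axes, with 1 point for each of the 22 libraries. Cox8b rises with Ucp1 across the libraries of all groups, while Cox7a1 and Cox6b2 spread less within a group over the range of Ucp1; co-treated replicate 2, the library with the least Ucp1, is also the lowest of its group for Cox7a1.

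Against cisplatin alone, most of the members that had fallen were higher with co-treatment. Of 82 members 45 were higher and 7 lower with cisplatin plus KW6002, and over all genes 55.8% were called, 28.6% higher and 27.2% lower. The median log2 fold change was 0.20 over the members and 0.0050 over all genes. For 29 members every co-treated library lay above every cisplatin library, and for 1, Cox6b2, below; over all genes these shares were 19.3% and 18.5%. This comparison shares the cisplatin libraries with the one before, so its direction is not independent of it. Under the study's limits 2 members passed here, beside 10.3% of all genes. Without co-treated replicate 6, 39 members were higher and 8 lower. The share of all genes called without this library is not given here. Of the 61 members that were lower with cisplatin, 42 were higher with co-treatment, 18 were not called, and 1, Ndufs7, fell further, at -0.15 (SE 0.058, adjusted p = 0.0372). Of the 6 that were higher with cisplatin, 3 were lower with co-treatment: Cox6b2, Ndufb6, and Ndufa4l2.

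By complex, the median log2 fold change of co-treatment against cisplatin was 0.29 for complex II (2 of 4 higher), 0.25 for complex V (12 of 17 higher), 0.24 for complex III (5 of 8 higher), 0.17 for complex I (17 of 35 higher and 4 lower), and 0.16 for complex IV (9 of 18 higher and 3 lower). The summed levels stood at 68.0% of vehicle for complex II, 75.9% for complex V, 80.4% for complex III, 84.2% for complex I, and 98.1% for complex IV. Among core subunits, Ndufs1 rose by 0.67, Sdha by 0.64, Uqcrc2 by 0.48, Atp5b by 0.53, Atp5a1 by 0.56, and Atp5g1 by 0.75 on the log2 scale, each with an adjusted p of at most 2.36e-05. The anchor subunits Sdhc and Sdhd, at 0.12 (SE 0.055, adjusted p = 0.0609) and 0.067 (SE 0.060, adjusted p = 0.355), were not called. Ndufb3, an accessory subunit that was not called with cisplatin (0.16), was the member of complex I with the largest fall, at -0.38 (SE 0.095, adjusted p = 0.00157), with overlapping libraries. Cox5a was called at 0.23 (SE 0.091, adjusted p = 0.0399), but this call was lost on leaving out any of 8 libraries (cisplatin replicates 1, 3, 4, and 5 and co-treated replicates 2, 3, 4, and 6; adjusted p from 0.0516 to 0.125). Cox6a1 was called at 0.19 (SE 0.065, adjusted p = 0.0182), and this was lost without cisplatin replicate 1 or co-treated replicate 6 (adjusted p from 0.0503 to 0.0608).

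Co-treated kidneys still differed from vehicle-treated ones. Here 48 members were lower and 5 higher, beside 29.9% and 29.8% of all genes (59.7% called). For 26 members the co-treated libraries all lay below the vehicle libraries and for 2 above, beside 18.5% and 18.9% of all genes. The median log2 fold change was -0.21, compared with -0.39 for cisplatin against the same vehicle libraries. The 61 members lower with cisplatin kept a median of 52.1% of their log2 difference from vehicle when KW6002 was given too, with quartiles of 38.0% and 64.8%; both differences are taken from the same vehicle libraries. Ndufs1 (-0.79), Sdha (-0.69), and Atp5b (-0.50) were among those that remained lower, and Cox4i1, at -0.094 (SE 0.071, adjusted p = 0.264), was among those that were not called. The number called was 33 within the mice numbered in the 500s and 32 with the fat markers as a covariate, and the calls over all genes were also fewer, at 48.3% and 45.6%, while 26 members were called lower and 14 higher with library-size scaling, under which the median of all genes was 0.16. The share of all genes called with library-size scaling is not given here. The median of the members minus that of all genes was -0.21 under both scalings. Under the study's limits 3 members passed, beside 13.4% of all genes.

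KW6002 without cisplatin left the members near their vehicle levels. By edgeR none of the 82 was called, beside 0.0175% of all genes, by DESeq2 none was called, and 7 had an unadjusted p below 0.05, beside 11.3% of all genes. For 1 member the KW6002 libraries all lay above the vehicle libraries and for 4 below, beside 0.391% and 0.998% of all genes. The median log2 fold change was -0.054 over the members, with a median standard error of 0.069, and the range was -0.40 (Cox8b) to 0.66 (Cox4i2). Ndufs1 changed by -0.050 (SE 0.056, adjusted p = 0.769), Sdha by -0.081 (SE 0.053, adjusted p = 0.580), and Atp5b by -0.0091 (SE 0.055, adjusted p = 0.969). Differences of this size were not told apart from 0 for single members, which does not show that the groups were equal. Of the 82 members 63 had a negative log2 fold change and 19 a positive one. The summed levels stood at 95.4% (complex II) to 99.4% (complex IV) of vehicle. This shared direction was not tested.

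The effect of KW6002 with cisplatin differed from its effect without cisplatin for 44 members (40 higher and 4 lower in the presence of cisplatin), tested as an interaction in the same fit, beside 42.7% of all genes (22.8% higher and 19.9% lower). Under the study's limits 2 members passed here, beside 8.58% of all genes. Of the 8 members of complex III 6 were called, all higher, as were 11 of 17 in complex V, 2 of 4 in complex II, and 15 of 35 in complex I, where 1 was lower; in complex IV 6 were higher and 3 lower. The difference was 0.72 (SE 0.079, adjusted p = 2.65e-07) for Ndufs1, 0.72 (SE 0.075, adjusted p = 1.21e-07) for Sdha, 1.48 (SE 0.19, adjusted p = 2.61e-06) for Cox7a1, and -0.75 (SE 0.18, adjusted p = 0.00201) for Cox6b2, on the log2 scale.

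In each of the following lists of other genes of this organelle, most of the genes tested were lower with cisplatin. Over all genes, 35.9% were lower and 34.6% higher in that comparison. For co-treatment against cisplatin, 28.6% of all genes were higher and 27.2% lower. The mitochondrially encoded subunits were represented by 12 genes, of which 7 could be tested; all 7 fell with cisplatin (median log2 fold change -1.21) and all 7 rose with co-treatment against cisplatin (median 0.89). mt-Nd4 and mt-Cytb were at -1.81 and -1.78 with cisplatin and at 0.92 and 0.89 with co-treatment against cisplatin. The 12 mitochondrially encoded genes together took 9.10% to 9.47% of all counts with vehicle and 8.76% to 9.03% with KW6002. Their share was 4.08% to 5.14% with cisplatin and 7.10% to 8.43% with co-treatment. Polyadenylated libraries capture these transcripts unevenly. Of 51 assembly factors, proteins that build the complexes without staying in them, 33 fell and 7 rose with cisplatin (median -0.38), and 24 rose and 12 fell with co-treatment against cisplatin. Acad9 (-1.25) and Ecsit (-1.10), both of complex I assembly, fell most, and Sdhaf1 (0.57), of complex II assembly, rose. Of 77 mitochondrial ribosomal proteins tested, 50 fell and 9 rose with cisplatin (median -0.23), and 44 rose and 5 fell with co-treatment.

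Subunits and carriers that the naming rule does not reach were Ndufab1, Cyc1, Cycs, Atpif1, and Usmg5. Of these 5, Ndufab1 (-0.56), Cyc1 (-0.42), and the electron carrier cytochrome c, Cycs (-0.95), were lower with cisplatin, and the other two were not called. Against cisplatin, Cyc1 and Ndufab1 were higher with co-treatment, and Atpif1 and Usmg5 were lower.

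Of 10 regulators of mitochondrial gene expression 7 fell and 2 rose with cisplatin, beside 35.9% and 34.6% of all genes. Esrra (-0.97) and its coactivator Ppargc1a (-0.93) fell, as did Ppargc1b (-0.87), the mitochondrial RNA polymerase Polrmt (-0.78), the mitochondrial transcription factors Tfam (-0.43) and Tfb2m (-0.55), and the ETS factor Gabpa (-0.51). Pprc1 (0.58) and Nrf1 (0.22) rose, and Yy1 (-0.029) was not called. With co-treatment against cisplatin 5 rose and none fell, beside 28.6% and 27.2% of all genes, with Polrmt at 0.76 and Esrra at 0.63. Among the 8 members with NRF1 letters in the promoter window shown above, 6 were lower with cisplatin, from Uqcrc1 (-0.67) and Atp5k (-0.64) to Ndufa11 (-0.23), and Cox6a1 and Atp5g2 were not called; this share is near that of all members.

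The change with cisplatin also varied with abundance and transcript length. The 19 members at 300 CPM or more with vehicle had a median log2 fold change of -0.68 and the other 63 a median of -0.31. Over all genes tested the same split gave -0.63 for 475 genes and -0.00015 for 16656, so a larger fall of abundant genes was not particular to the members. The split used the vehicle libraries of the same comparison. A larger fall at 300 CPM or more was therefore partly set by the split, for members and for all genes. At 300 CPM or more, most genes were called lower, both among the members and among all genes tested. Under 300 CPM, most members but only a minority of all genes tested were called lower. The 27 members with the longest transcripts (1110.0 bases or more) had a median of -0.68, with 24 called lower, and the 27 with the shortest (659 bases or fewer) a median of -0.25, with 17 called lower.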

How the data were processed

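The authors prepared stranded poly(A) libraries from kidney RNA, sequenced single reads of 50 bases, and aligned them to mm10 with STAR, keeping unique alignments. The deposited values are counts, whole numbers of reads for each Ensembl gene made by the authors with HTSeq 0.6.1p1, not normalized; use of strand is not given in the sources used here. Another 66 columns, unnamed and empty, were not used. Symbols and positions came from GENCODE M21, which matched 32824 of the 32858 identifiers.

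Counts were analysed in edgeR 4.0.16 (R 4.3.3): filterByExpr with a minimum of 10 counts, TMM factors, 1 mean for each of the 4 groups, quasi-likelihood F tests for each comparison, and adjustment by Benjamini-Hochberg over 17131 genes. Steps were tested on simulated data. A call is an adjusted p below 0.05. The thresholds of 0.01 and a log2 fold change of 1 used in the study were an alternative, with DESeq2 1.42.0, other scalings, filters, subsets, covariates, and each library left out. The members, the gene lists, and the role groups within complexes were chosen with earlier results of these data known. Named members were the catalytic or core subunits, the isoform genes, and the largest rise and fall in each complex in the first 2 comparisons; any other member named was picked after its values were seen. The values of 1 member are not reported here, though it is kept in the counts. Replicates are separate mice. No pair of libraries agreed within sampling noise.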

Additional observations from a re-analysis of the deposited data

Results flagged for a closer look

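Among 132 sets of values (33 named members in 4 groups), 13 had 1 library far from the rest of its group by Dixon's criterion, which chance alone does for about 1 set in 20. Co-treated replicate 6 accounted for 7 of them, always as the highest, among them 354 CPM of Ndufv1 (the others at 288 to 309), 779 of Sdha (the others at 650.2 to 692), 262 of Sdhb, 391 of Uqcrc2, 50.5 of Cox7a2l, and 1954 of Atp5a1. This library also held the most proximal tubule marker RNA of its group (15364 CPM, the others at 8924 to 12279) and 49.8 CPM of adrenal markers, compared with 1.47 to 2.67 CPM in the other co-treated libraries; their part in the member values was not tested. Without co-treated replicate 6, Ndufs1 and Sdha were still called higher with co-treatment than with cisplatin.

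The lowest cisplatin library was replicate 1 for Cox6b1 (295 CPM, the others at 354 to 377), Atp5g3 (288 CPM), and Uqcrc2 (219 CPM, the others at 258 to 261). It also had the least proximal tubule marker RNA of its group, 3218 CPM. The other sets were Cox7a2l in KW6002 replicate 3 (42.6 CPM), Cox8a in KW6002 replicate 6 (457 CPM), and Cox8a in co-treated replicate 1 (361 CPM).

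The effect of KW6002 differed between kidneys with and without cisplatin for 44 members, by the interaction test given above.

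Ndufb1-ps, left out by the -ps ending although complex I is known to hold an NDUFB1 subunit, had 1365 to 2281 counts in every library. Its level was 59.4 ± 5.19 CPM with vehicle and 54.1 ± 3.78 CPM with cisplatin (SD, n = 5 each), and it was not called (log2 fold change -0.14, SE 0.078, adjusted p = 0.126 by edgeR).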

How the results depend on the processing

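Under the study's limits, 9 members were called with cisplatin against vehicle, 2 with co-treatment against cisplatin, 0 with KW6002 against vehicle, 3 with co-treatment against vehicle, and 2 in the interaction. For co-treatment against vehicle, 33 members were called in the mice numbered in the 500s (beside 48.3% of all genes) and 32 with fat markers as a covariate (beside 45.6%). The fat covariate and the omission of the 2 libraries with the least fat RNA were chosen after seeing the data. With one library left out at a time, the counts ran from 62 to 69, 44 to 55, 0 to 0, 47 to 58, and 38 to 48 in the same order of comparisons. With scaling by library size only, the summed levels with cisplatin and with co-treatment were 86.0% and 93.7% of vehicle for complex I, 59.9% and 75.8% for complex II, 77.4% and 89.5% for complex III, 103% and 109% for complex IV, 64.6% and 84.6% for complex V, and 76.8% and 90.4% for all members. With TMM factors and without the paired-isoform genes, complex IV (6 members left) stood at 75.1% with cisplatin. The share of calls that were lower went from 91.0% to 73.1% for cisplatin against vehicle and from 90.6% to 65.0% for co-treatment against vehicle under that scaling. Directions turned for Cox7a2l with cisplatin against vehicle under library-size scaling (log2 fold change 0.19) and for Cox8b with co-treatment against cisplatin under the fat covariate (0.66). The shorter NRF1 letters GCGCATG were found in 13 of the 67 members with a promoter window (19.4%), compared with 4.44% of 26742 genes. The cause of these changes was not tested.

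Replicate numbers are shared between groups, and the deviations of same-numbered libraries correlated at -0.175 to 0.405. In no pair of groups was every correlation above 0.1, although 4 of 5 were for vehicle and KW6002, so the number was not taken to pair mice. With the replicate number as a block, 67, 49, 0, 56, and 47 members were called. These counts, and those with libraries left out, are given without the share of all genes called. With the label series as a covariate, 63, 52, 0, 45, and 46 members were called. The share of all genes called with this covariate is given above for cisplatin against vehicle only. No cisplatin-treated mouse is numbered in the 300s, so the covariate rests on vehicle and KW6002 mice. Cox6a2 and Cox4i2 have few counts, and their values carry a large counting error.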
